A study of Mus musculus with 6 samples.

Results

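Interferon response genes are the genes that cells switch on after interferon binds its receptors, and 32 of them were followed here in day 3 skin wounds of FoxO1 +/- and wild-type (WT) mice. The 32 were taken as a family by symbol, and a probe was assigned to a member when the RefSeq accession of its array annotation carried that symbol. Of the 16408 genes measured, 30 were members. All 30 had a probe well above background on all 6 arrays, so none entered through 1 genotype alone. The other 2 members, Mx1 and Mx2, had no probe whose accession was matched and were not analysed here.

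Total RNA came from the wound site of male mice of strain C57/BL6, 3 arrays from FoxO1 +/- and 3 from WT animals. Every animal of both genotypes was given 4 full-thickness wounds in the back with a 4 mm punch, and the wound with its rim was taken 3 days later with a 6 mm punch. The FoxO1 +/- animals are heterozygous for a loss of Foxo1, a forkhead transcription factor, and how the allele was made and whether its loss is confined to a tissue are not given in the sources used here. There were no unwounded samples, and the labels give no age. The titles number the animals within a genotype, but the sources used here do not say how the wounds of an animal were pooled, so the p-values rest on the spread between arrays, which may be technical in part.

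Interferons of type I and type III are made by cells that sense foreign or misplaced nucleic acid, and interferon-gamma is made by T cells and natural killer cells. Type I interferon acts through the kinases Jak1 and Tyk2 to form a complex, with Stat2 and Irf9 among its parts, that binds the interferon-stimulated response element (ISRE) of its target genes, whereas the response to interferon-gamma runs through the gamma-activated site (GAS). In injured skin, plasmacytoid dendritic cells that enter the wound early are a known source of type I interferon.

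A RefSeq table of promoters (build GRCm38.p6, from 250 bases before to 50 bases after each start) held 24 of the 32 members. The ISRE core, searched on both strands as GAAA, any 2 bases and GAAA again, stood in the window of 14 of these 24 genes (58.3%), against 3.99% of all 27025 genes in the table. The GAS core, searched as TTCNNNGAA, which reads the same on both strands, stood in 5 of 24 (20.8%), against 9.55% of all genes. Both motifs stood in 3 members, neither stood in 8, and in 2 member promoters they overlapped or lay within 10 bases of each other. The stretches below belong to members whose values are given on every array, or, for Oas1a, to a gene with overlapping copies of the element. They run 5′ to 3′ in the direction of the gene, with the motif letters in capitals.
Irf1 (GAS, chr11:53769904-53769952, + strand): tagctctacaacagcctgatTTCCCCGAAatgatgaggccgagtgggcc
Stat2 (ISRE, chr10:128270256-128270305, + strand): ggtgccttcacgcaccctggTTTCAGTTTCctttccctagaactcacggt
Ifit1 (ISRE, chr19:34640765-34640833, + strand): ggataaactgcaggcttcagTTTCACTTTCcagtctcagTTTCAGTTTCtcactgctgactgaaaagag
Ifit3 (ISRE, chr19:34583353-34583436, + strand): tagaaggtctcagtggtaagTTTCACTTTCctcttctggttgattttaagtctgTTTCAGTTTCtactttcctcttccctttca
Oas1a (ISRE, chr5:120907526-120907565, - strand): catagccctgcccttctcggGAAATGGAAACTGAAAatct
Rsad2 (ISRE, chr12:26456543-26456592, - strand): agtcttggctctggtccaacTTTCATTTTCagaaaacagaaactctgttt
Isg15 (ISRE, chr4:156200855-156200916, - strand): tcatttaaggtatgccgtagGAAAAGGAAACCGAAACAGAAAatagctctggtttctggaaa
Gbp2 (ISRE, chr3:142620584-142620633, + strand): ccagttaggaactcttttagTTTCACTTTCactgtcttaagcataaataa
Cxcl10 (ISRE, chr5:92349073-92349122, - strand): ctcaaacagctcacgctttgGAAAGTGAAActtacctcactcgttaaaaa

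In Isg15 the element appeared 3 times in an overlapping run that began 78 bases before the start, in Ifit1 and Ifit3 it appeared 2 times each, and in Irf1 the GAS core lay 90 bases before the start. A match describes the letters only. The 30 measured members lie on 13 chromosomes, 7 of them on chromosome 5, where the Oas genes and the Cxcl9 and Cxcl10 genes are found.

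Levels below are log2 probe signals relative to the 75th percentile of their array, and differences are FoxO1 +/- minus WT on the same scale. Where a single or numbered wound is named below, it stands for the RNA on 1 array, which may come from more than 1 wound. Between 64.3% and 71.3% of spots were well above background on the FoxO1 +/- arrays, against 71.3% to 71.9% on the WT arrays. FoxO1 +/- replicate 3 held the lowest share and also the lowest 75th percentile of the signal, 900 units, against 1094 to 1302 units on the other 5 arrays. All 6 arrays shared 1 slide and 1 scan, with the 3 WT arrays and FoxO1 +/- replicate 1 in row 1 of the slide and FoxO1 +/- replicates 2 and 3 in row 2. The brighter Foxo1 probe read 1.54, 1.69 and 1.49 in FoxO1 +/- wounds, against 2.04, 1.81 and 2.32 in WT wounds, without overlap (-0.48, SE 0.14, limma adjusted p 0.650 over genes). The second Foxo1 probe read 0.38, 0.50 and 0.30 in FoxO1 +/- wounds, against 1.31, 1.04 and 1.51 in WT wounds, also without overlap (-0.89, SE 0.14, limma unadjusted p 0.000518, adjusted p 0.190 over all 37898 kept probes). The sources used here do not place either probe relative to the disrupted part. All 10 of the keratinocyte and fibroblast markers looked up were well above background on all arrays.

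No interferon response gene differed between FoxO1 +/- and WT wounds in limma at an adjusted p of 0.05, where 0.00609% of all genes passed. None passed at an unadjusted p of 0.05, against 6.25% of all genes (3.43% higher and 2.83% lower in FoxO1 +/- wounds). None had genotype groups that did not overlap, against 11.5% of all genes (6.91% higher and 4.56% lower). Of the 30 members, 7 read higher and 23 lower in FoxO1 +/- wounds, with a median difference of -0.08, against 0.01 over all genes. The differences ran between -0.30 for Rsad2 and 0.18 for Irf1, their SE between 0.11 and 0.45, and their adjusted p-values between 0.894 and 0.998. For 26 of 30 members the 95% interval of the difference lay within 1 on the log2 scale, a change of 2-fold, and for 4 (Irf1, Irf9, Ifitm3 and Ifi27l2a) within 0.5. The intervals of Oas3, Rsad2, Ifi44 and Cxcl10 reached past 1, so a 2-fold difference in those genes lay within the error of 3 arrays against 3. Which sign the members took rested on single arrays. Without FoxO1 +/- replicate 3, 28 of 30 read higher with a median of 0.16, without FoxO1 +/- replicate 1 only 2 read higher with a median of -0.26, and without WT replicate 2, 22 read higher. Within slide row 1, where FoxO1 +/- replicate 1 alone stands against the 3 WT arrays, 30 of 30 read higher with a median of 0.28, and the fit with slide row as a block gave the same median. None passed the adjusted threshold in any of these fits.

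**Figure D1:**
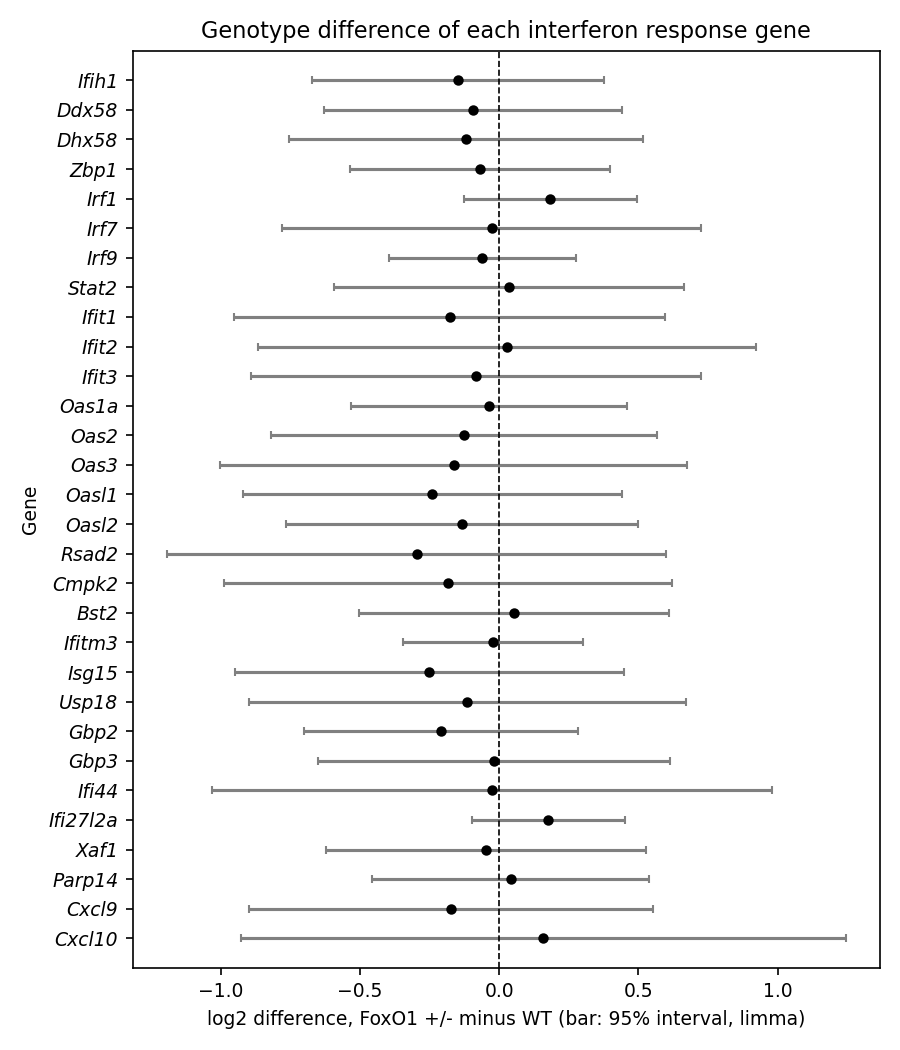
Each point is the log2 difference (FoxO1 +/- minus WT, horizontal axis) of 1 interferon response gene, with its 95% limma interval as a bar, and genes run down the page by role. All 30 intervals include 0, and the bounds lie between -1.19 and 1.24.

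What the members did share was their order across the arrays. Averaged over the 30 members, the level on an array deviated from each gene's own mean by 0.34, 0.09 and -0.54 on FoxO1 +/- replicates 1, 2 and 3, against -0.03, 0.29 and -0.15 on WT replicates 1, 2 and 3. The same quantity over all 16408 genes had medians between -0.03 and 0.02. FoxO1 +/- replicate 3 carried the lowest level of all 6 arrays for 28 of 30 members, a place it held for 17.2% of all genes and 15.5% of the 9221 genes in the members' range of mean levels. The exceptions were Irf1 and Ifi27l2a. The highest level lay on FoxO1 +/- replicate 1 for 14 members and on WT replicate 2 for another 14, so that these arrays together held 28 of 30, against 33.0% of all genes. All 30 members lay above their own mean on FoxO1 +/- replicate 1 and 0 of 30 on FoxO1 +/- replicate 3.

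**Figure D2:**
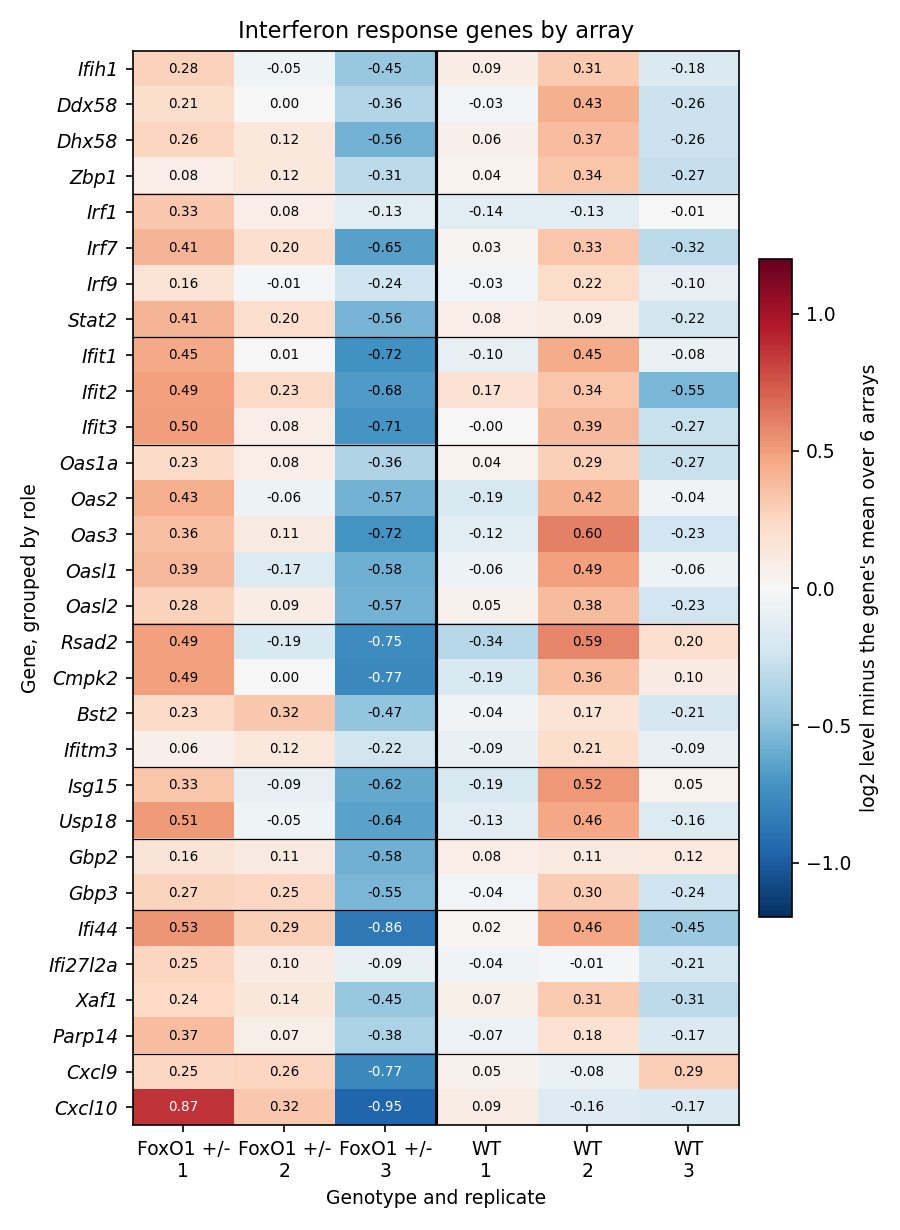
Each cell is the log2 level of 1 gene (rows, grouped by role) on 1 array (columns, FoxO1 +/- left and WT right) minus that gene's mean over the 6 arrays. Blue fills the column of FoxO1 +/- replicate 3 in all 30 rows, and red fills that of FoxO1 +/- replicate 1.

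Within the FoxO1 +/- wounds, replicate 3 was the lowest array for 30 of 30 members, against 34.0% of all genes, and replicate 1 the highest for 26, against 26.3%. Within the WT wounds, replicate 2 was the highest for 26 members, against 41.0% of all genes, and replicate 3 the lowest for 20, against 38.5%. A total of 17 members (56.7%) followed both the order 1, 2, 3 from high to low in FoxO1 +/- wounds and the order 2, 1, 3 in WT wounds, as did 2.12% of all genes. The arrays and orders counted here were picked from the members' own values, so their high shares among the members are a description and not a test. The members are controlled by shared factors and were measured in the same 6 RNA preparations, so they are not 30 separate observations of this order. In RNA from a whole wound, fewer responding cells and less interferon-induced RNA per cell cannot be told apart.

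The spread between arrays of a genotype was wide for these genes. The median SD over the members was 0.47 in FoxO1 +/- wounds and 0.30 in WT wounds, against medians of 0.12 and 0.13 over all genes. In FoxO1 +/- wounds 23 of 30 members lay above the 90th percentile of all genes' SD, and in WT wounds 4 of 30 did. The SD was larger in FoxO1 +/- than in WT wounds for 28 members, against 45.3% of all genes, with Ddx58 and Zbp1 as the exceptions. Without FoxO1 +/- replicate 3 the median SD of the FoxO1 +/- wounds was 0.16, and without WT replicate 2 that of the WT wounds was 0.17. The distance between the highest and lowest FoxO1 +/- array ran from 0.34 for Ifitm3 to 1.82 for Cxcl10 and reached 1 for 12 members, against 4.58% of all genes. In WT wounds it ran from 0.04 for Gbp2 to 0.92 for Rsad2. For all 30 members the distance within FoxO1 +/- wounds exceeded the difference between the genotypes, as it did for 83.1% of all genes.

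**Figure D3:**
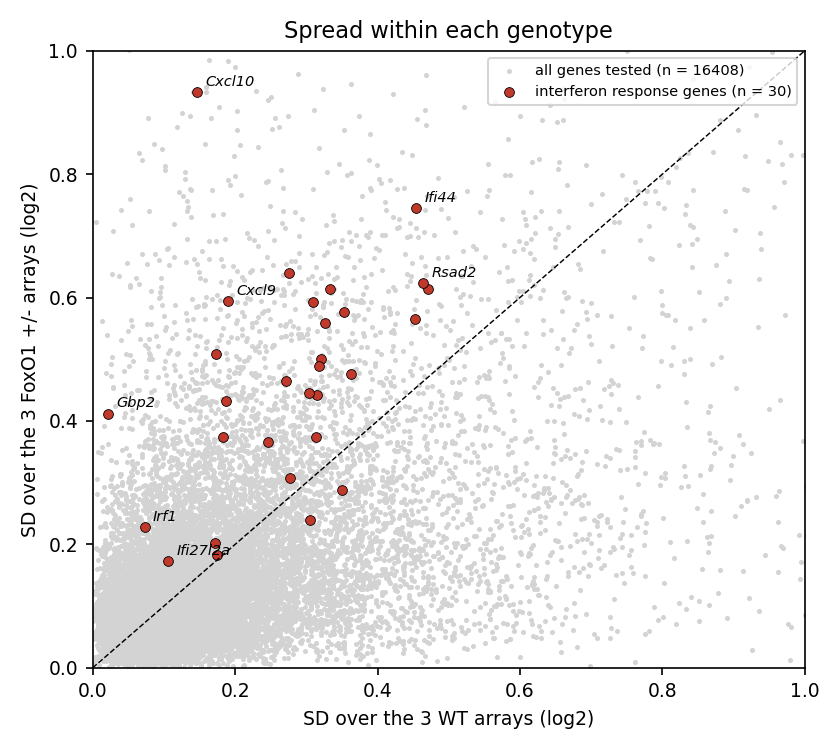
Each point is 1 gene, with the SD of its log2 level over the 3 WT arrays on the horizontal axis and over the 3 FoxO1 +/- arrays on the vertical axis. Both axes end at 1 and genes beyond are not drawn. The red members lie above the dashed line of equal SD in 28 of 30 cases.

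The sensors of foreign RNA and DNA were 4 members. Ifih1 (MDA5), which binds long double-stranded RNA, read 2.65, 2.32 and 1.92 in FoxO1 +/- wounds 1, 2 and 3, against 2.46, 2.68 and 2.19 in WT wounds 1, 2 and 3 (-0.15, SE 0.21, limma adjusted p 0.982). The groups overlapped, with FoxO1 +/- replicate 3 lowest and WT replicate 2 highest. Dhx58 (LGP2), a helicase that tunes the other RNA sensors, read 1.51, 1.37 and 0.68 in FoxO1 +/- wounds, against 1.31, 1.62 and 0.99 in WT wounds (-0.12, SE 0.26, adjusted p 0.992). Its extremes fell on the same arrays as those of Ifih1. Ddx58 (RIG-I), the sensor of RNA ends without a cap, differed by -0.09, and Zbp1, which recognises nucleic acid in the left-handed Z form, by -0.07. All 4 sensors were highest on WT replicate 2 and lowest on FoxO1 +/- replicate 3.

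Among the transcription factors, Irf7, which amplifies the production of type I interferon, read 2.78, 2.57 and 1.72 in FoxO1 +/- wounds, against 2.40, 2.70 and 2.05 in WT wounds (-0.03, SE 0.31, adjusted p 0.998). The WT values lay between the highest and the lowest FoxO1 +/- wound. Stat2 read 3.30, 3.09 and 2.33 in FoxO1 +/- wounds, against 2.96, 2.98 and 2.67 in WT wounds (0.04, SE 0.26). Irf9, its partner in the ISRE-binding complex, read 3.61, 3.44 and 3.21 in FoxO1 +/- wounds, against 3.42, 3.67 and 3.35 in WT wounds (-0.06, SE 0.14). Both were lowest on FoxO1 +/- replicate 3, and the groups overlapped.

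Irf1, a factor strongly induced by interferon-gamma, behaved otherwise. Its level was 4.07, 3.82 and 3.61 in FoxO1 +/- wounds, against 3.60, 3.61 and 3.73 in WT wounds, a difference of 0.18 (SE 0.13, 95% interval -0.13 to 0.49, limma adjusted p 0.905). Its WT values lay within 0.13 of each other, and WT replicates 2 and 3 stood above the lowest FoxO1 +/- wound. Without FoxO1 +/- replicate 3 the difference was 0.29, with an unadjusted limma p of 0.0432 and an adjusted p of 0.807. Within slide row 1, where FoxO1 +/- replicate 1 is the only FoxO1 +/- array, it was 0.42.

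The Ifit proteins bind viral RNA and block its translation. Ifit1, with 2 ISRE cores in the stretch printed above, read 2.32, 1.87 and 1.14 in FoxO1 +/- wounds, against 1.77, 2.31 and 1.79 in WT wounds (-0.18, SE 0.32, adjusted p 0.991). Ifit3, which stabilises Ifit1 in human cells, read 4.05, 3.63 and 2.84 in FoxO1 +/- wounds, against 3.55, 3.94 and 3.28 in WT wounds (-0.08, SE 0.33). Ifit2 differed by 0.03 (SE 0.37). In all 3 genes FoxO1 +/- replicate 1 was the highest and replicate 3 the lowest array, 1.17 to 1.21 apart, which corresponds to signals 2.25 to 2.31 times as high. Ifit3 has a near-identical neighbouring copy, Ifit3b, whose RNA its probe may also read.

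Oas enzymes make short oligoadenylates that activate the antiviral nuclease RNase L, and the Oas-like proteins are their relatives. Oasl1, which in mice restrains the translation of Irf7, read 4.37, 3.82 and 3.40 in FoxO1 +/- wounds, against 3.92, 4.47 and 3.92 in WT wounds (-0.24, SE 0.28, adjusted p 0.964). Oasl2 read 4.46, 4.28 and 3.62 in FoxO1 +/- wounds, against 4.23, 4.56 and 3.96 in WT wounds (-0.13, SE 0.26). In both genes WT replicate 2 was the highest array and FoxO1 +/- replicate 3 the lowest. Oas1a, Oas2 and Oas3 differed by -0.04, -0.13 and -0.16 and were lowest on the same array. Oas1a belongs to a cluster of near-identical genes, so its probe may read more than 1 of them.

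Rsad2 (viperin), which turns a nucleotide into a chain terminator for viral polymerases, had the most negative difference of the members. It read 2.81, 2.13 and 1.56 in FoxO1 +/- wounds, against 1.97, 2.90 and 2.51 in WT wounds (-0.30, SE 0.37, 95% interval -1.19 to 0.60, adjusted p 0.970). The second highest of the 6 values was a FoxO1 +/- wound, and without FoxO1 +/- replicate 3 the difference was 0.0049. Cmpk2, a mitochondrial nucleotide kinase and the neighbour of Rsad2 on chromosome 12, read 1.26, 0.76 and -0.01 in FoxO1 +/- wounds, against 0.58, 1.13 and 0.86 in WT wounds (-0.18, SE 0.33). Rsad2 and Cmpk2 shared their low WT array, replicate 1, whereas WT replicate 3 was the lowest WT array for 20 of the 30 members. WT replicate 1 was also the lowest WT array for Irf1, Ifit1, Oas2, Oasl1, Ifitm3, Isg15 and Gbp2. Bst2 (tetherin), which holds budding virus at the cell surface, differed by 0.05, and Ifitm3, which hinders viral fusion, by -0.02.

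Isg15 is a ubiquitin-like protein that is attached to other proteins, and its promoter stretch carried 3 overlapping ISRE cores. It read 6.48, 6.05 and 5.53 in FoxO1 +/- wounds, against 5.95, 6.66 and 6.19 in WT wounds (-0.25, SE 0.29, 95% interval -0.95 to 0.45, adjusted p 0.962). Usp18, which removes Isg15 from proteins and damps signalling at the type I receptor, read 2.66, 2.10 and 1.51 in FoxO1 +/- wounds, against 2.02, 2.61 and 1.99 in WT wounds (-0.12, SE 0.32). Both genes had their lowest value on FoxO1 +/- replicate 3, and the genotype groups overlapped.

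Gbp2 and Gbp3 are large GTPases that coat bacteria and parasite vacuoles. Gbp2 read 2.99, 2.94 and 2.25 in FoxO1 +/- wounds, against 2.91, 2.94 and 2.95 in WT wounds (-0.21, SE 0.20, adjusted p 0.946). Its 3 WT wounds were nearly equal (SD 0.02), and the difference came to 0.03 without FoxO1 +/- replicate 3. Gbp3 read 2.91, 2.89 and 2.10 in FoxO1 +/- wounds, against 2.61, 2.94 and 2.41 in WT wounds (-0.02, SE 0.26). FoxO1 +/- replicate 3 was the lowest of the 6 arrays for both genes.

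Of the remaining induced genes, Ifi27l2a read 7.68, 7.53 and 7.34 in FoxO1 +/- wounds, against 7.39, 7.41 and 7.22 in WT wounds. Its difference of 0.18 (SE 0.11, 95% interval -0.10 to 0.45) had the smallest p among the members, 0.170 unadjusted and 0.894 adjusted in limma. Only FoxO1 +/- replicate 3 fell within the WT range. Parp14, an ADP-ribosyltransferase, read 3.87, 3.57 and 3.13 in FoxO1 +/- wounds, against 3.43, 3.69 and 3.33 in WT wounds (0.04, SE 0.20), with FoxO1 +/- replicate 3 again lowest. Xaf1, which binds the apoptosis inhibitor Xiap, differed by -0.05, and Ifi44 by -0.03.

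The chemokines Cxcl9 and Cxcl10 call in T cells and natural killer cells through the receptor Cxcr3. Cxcl10 read 3.58, 3.04 and 1.76 in FoxO1 +/- wounds, against 2.80, 2.55 and 2.54 in WT wounds. Its FoxO1 +/- wounds lay on both sides of the whole WT range, with signals 3.52 times as high in replicate 1 as in replicate 3. The difference was 0.16 (SE 0.45, 95% interval -0.93 to 1.24, adjusted p 0.995). Without FoxO1 +/- replicate 3 it was 0.67 with an unadjusted p of 0.0159 and an adjusted p of 0.756, and without FoxO1 +/- replicate 1 it was -0.23. Within slide row 1, where FoxO1 +/- replicate 1 alone stands against the 3 WT arrays, it was 0.94. Cxcl9, an interferon-gamma target, read 0.24, 0.25 and -0.79 in FoxO1 +/- wounds, against 0.03, -0.10 and 0.28 in WT wounds (-0.17, SE 0.30, adjusted p 0.991). Here the highest array was WT replicate 3 and the lowest again FoxO1 +/- replicate 3.

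**Figure D4:**
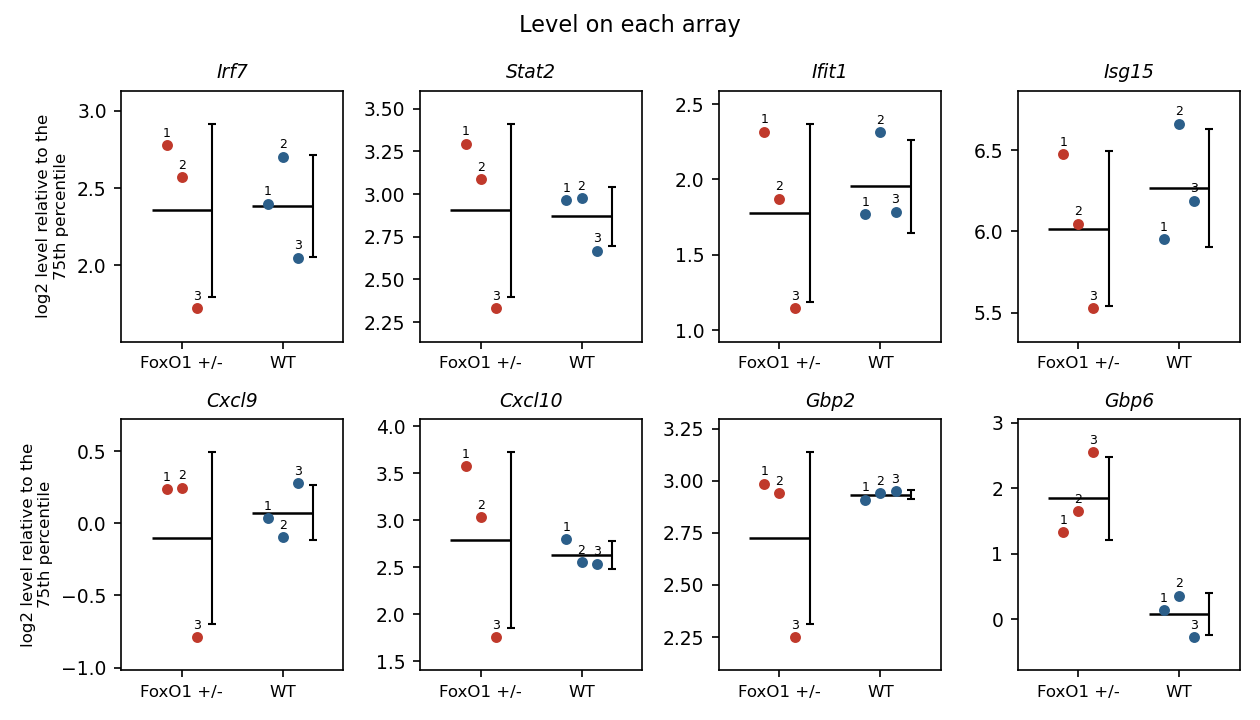
Points are the log2 levels on each array, numbered by replicate, with the group mean as a line and the SD as a bar (n = 3), FoxO1 +/- in red on the left and WT in blue on the right, each panel on its own vertical scale. FoxO1 +/- replicate 3 is the lowest point of each panel except Gbp6, where it is the highest.

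Irf1, Gbp2, Gbp3 and Cxcl9 were grouped here as 4 members of interferon-gamma type. Of these, Irf1, Gbp2 and Cxcl9 parted from most others in the WT wounds, whereas Gbp3 (WT SD 0.27) did not. WT replicate 2 was the highest WT array for 1 of these 4, Gbp3, and for 25 of the other 26. The exception among the 26 was Cxcl10, whose WT SD was 0.15. The mean deviations of the 4 were -0.01, 0.05 and 0.04 on WT replicates 1, 2 and 3, whereas those of the other 26 were -0.03, 0.33 and -0.18. On FoxO1 +/- replicates 1, 2 and 3 they were 0.25, 0.17 and -0.51 for the 4, and 0.36, 0.08 and -0.55 for the other 26. The median SD in WT wounds was 0.13 for the 4 and 0.31 for the other 26. This division of the members was described and not tested, and the contrast depends on which genes were assigned to the 4.

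Of the 30 members, 8 had a second probe above background. All 8 second probes were lowest on FoxO1 +/- replicate 3, and 6 gave a difference of the same sign as the first probe. The second probes of Ddx58 (0.13) and Xaf1 (0.12) read higher in FoxO1 +/- wounds where the first ones read lower.

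Upstream of the members, the list of interferons and their receptors had 12 of 16 genes measured, of which 7 read higher and 5 lower in FoxO1 +/- wounds (median 0.02), with 0 past limma's adjusted or unadjusted p of 0.05. Ifnb1, the interferon-beta gene, did not stand well above background on a single array. Ifng, well above background on 2 FoxO1 +/- arrays and 3 WT arrays, read -3.77, -4.45 and -4.79 in FoxO1 +/- wounds, against -3.85, -4.61 and -2.98 in WT wounds (-0.53, SE 0.46, adjusted p 0.932). Its groups overlapped. The type I receptor subunit Ifnar1 read 2.57, 2.58 and 2.49 in FoxO1 +/- wounds, against 2.33, 2.48 and 2.44 in WT wounds, without overlap but also short of the threshold (0.13, SE 0.07, unadjusted p 0.128, adjusted p 0.867). Ifnar2 differed by 0.05, and the interferon-gamma receptor subunits Ifngr1 and Ifngr2 by 0.01 and 0.14. Of these 12 genes, 1 was lowest on FoxO1 +/- replicate 3.

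Of the 10 genes of the Jak-Stat relay and its brakes, 7 read higher and 3 lower (median 0.04), with 0 past either threshold 6 lowest on FoxO1 +/- replicate 3, and differences of -0.0044 for the kinase Jak1, 0.06 for Jak2, 0.05 for Tyk2, -0.07 for Stat3 and 0.07 for the inhibitor Socs1. Of the 7 further Irf genes, 4 read higher and 3 lower, among them Irf2 (0.10), Irf3 (0.03) and Irf8 (0.04). None of the 7 passed either threshold, and 3 were lowest on FoxO1 +/- replicate 3. Of 12 genes of nucleic acid sensing, 8 read higher and 4 lower (median 0.07), with 0 past the adjusted and 1 past the unadjusted threshold, and 6 lowest on that array. That gene, the kinase Ikbke, read -0.75, -0.70 and -0.77 in FoxO1 +/- wounds, against -1.21, -0.88 and -1.08 in WT wounds, without overlap (0.32, SE 0.10, unadjusted p 0.0179, adjusted p 0.667). The RNA receptor Tlr7 differed by 0.09 (SE 0.08).

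Further interferon-stimulated genes outside the 32 were given as a second list, of which 29 of 32 were measured. Of these, 15 read higher and 14 lower in FoxO1 +/- wounds (median 0.02), and 0 passed at an adjusted or an unadjusted p of 0.05. Epsti1 (-0.09) and Nmi (-0.11) had the smallest p-values. Their mean deviations were 0.23, 0.09 and -0.33 on FoxO1 +/- replicates 1, 2 and 3, against -0.05, 0.24 and -0.18 on WT replicates 1, 2 and 3, and 23 of 29 were lowest on FoxO1 +/- replicate 3. This is the order of arrays seen in the members, in genes that are not members.

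In a list of 23 genes typical of interferon-gamma, 21 were measured, 8 read higher and 13 lower (median -0.05), with 0 past the adjusted and 1, Gbp6, past the unadjusted threshold. Their mean deviations were 0.21, 0.11 and -0.23 on FoxO1 +/- replicates 1, 2 and 3, against -0.09, 0.07 and -0.06 on WT replicates 1, 2 and 3. These means include Gbp6, which ran against the list. The median deviations were 0.18, 0.13 and -0.33 on the FoxO1 +/- arrays, against 0.02, 0.05 and -0.03 on the WT arrays. FoxO1 +/- replicate 3 was the lowest array for 15 of 21. Among the WT arrays, replicate 2 was the highest for 13 of 21, against 41.0% of all genes. Nlrc5, an activator of class I antigen presentation genes, differed by -0.15 (SE 0.11). Gbp6 went the other way: it read 1.33, 1.66 and 2.55 in FoxO1 +/- wounds, against 0.14, 0.36 and -0.27 in WT wounds, without overlap (1.77, SE 0.34, unadjusted p 0.00181, adjusted p 0.369). Its highest value lay on FoxO1 +/- replicate 3. A second Gbp6 probe read -0.81, -0.97 and -1.99 in FoxO1 +/- wounds, against -1.21, -1.32 and -1.13 in WT wounds (-0.04), lowest on FoxO1 +/- replicate 3 as the members were. The Gbp genes of chromosome 5 are near-identical, so which of them either probe reads is uncertain, and the mean of both probes gave 0.87.

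**Figure D5:**
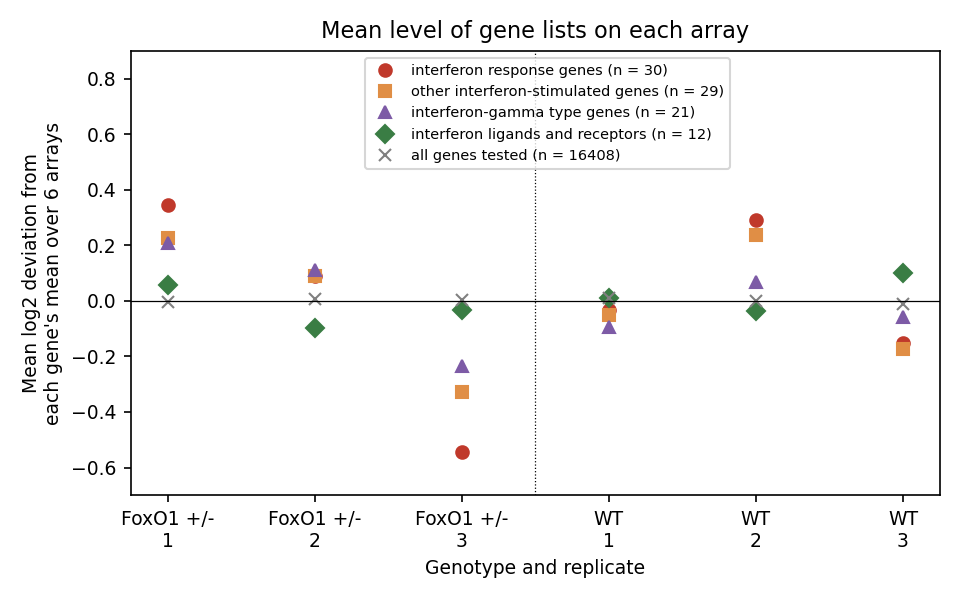
Points are the mean log2 deviation from each gene's own mean over 6 arrays (vertical axis) for 4 gene lists and all genes, on each array (FoxO1 +/- left, WT right). The members and the other interferon-stimulated genes are lowest on FoxO1 +/- replicate 3, at -0.54 and -0.33, while all genes stay near 0. The mean of the interferon-gamma type genes includes Gbp6, which is highest on that array.

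Markers of the cell types a wound can hold were read on the same arrays. Summed signals, in units of the 75th percentile of an array, were 244 to 309 for the 6 plasmacytoid dendritic cell markers in FoxO1 +/- wounds, against 242 to 266 in WT wounds, with the highest of the 6 sums on FoxO1 +/- replicate 3. That sum is carried by the bright probes of Siglech and Ly6d, which were highest there. Ccr9 and Klk1 were lowest there, and Cox6a2 read 3.618, against a lowest value of 3.617. Whether these 6 genes report plasmacytoid dendritic cells in RNA of a whole wound, or also other cells, was not tested. Averaged over the 6 genes on the log2 scale, the deviations from their own means were 0.16, 0.01 and -0.10 on FoxO1 +/- replicates 1, 2 and 3, against -0.02, -0.19 and 0.15 on WT replicates 1, 2 and 3. For 10 T cell and natural killer cell markers the sums were 16.0 to 22.01 in FoxO1 +/- wounds, against 16.4 to 21.5 in WT wounds, with 1 of 10 lowest on FoxO1 +/- replicate 3. Neutrophil markers, 7 measured, summed to 591 to 780 in FoxO1 +/- wounds, against 546 to 772 in WT wounds, and keratinocyte markers to 675 to 952 in FoxO1 +/- wounds, against 730 to 892 in WT wounds. Both sums were highest on FoxO1 +/- replicate 3, and so were the fibroblast sums, 1323 to 1492 in FoxO1 +/- wounds, against 1250 to 1328 in WT wounds. Of the 7 neutrophil genes, however, only 2 were highest on that array. Their mean log2 deviation was highest on WT replicate 2, at 0.40, against 0.24 on FoxO1 +/- replicate 3. The 2 measured general leukocyte markers summed to 24.5 on FoxO1 +/- replicate 3, between the other arrays.

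Several marker sums parted the genotypes without overlap. Of all single genes, 11.5% had genotype groups without overlap, and 6.25% passed an unadjusted limma p of 0.05. The adipocyte markers summed to 206 to 274 in FoxO1 +/- wounds, against 107.1 to 195 in WT wounds, with 6 of 6 higher and 5 of 6 at an unadjusted limma p of 0.05. Their highest sum lay on FoxO1 +/- replicate 3, where the members were lowest, and their lowest on WT replicate 2, where 14 members were highest. The endothelial markers summed to 48.2 to 55.4 in FoxO1 +/- wounds, against 42.8 to 44.9 in WT wounds, with 6 of 6 higher, 2 of them at an unadjusted p of 0.05, and the highest sum again on FoxO1 +/- replicate 3. The 9 measured monocyte and macrophage markers summed to 370 to 390 in FoxO1 +/- wounds, against 337 to 350 in WT wounds, with 8 of 9 higher and 2 at an unadjusted p of 0.05. On FoxO1 +/- replicate 3 their sum was 370, with 2 of the 9 genes lowest there. Hair follicle markers summed to 1.88 to 2.24 in FoxO1 +/- wounds, against 43.9, 2.498 and 3.52 in WT wounds 1, 2 and 3. The high sum of WT replicate 1 was largely carried by Krt71 and Krt27. Krt71 read 4.93 there, against -4.35 and -3.30 on WT replicates 2 and 3, and Krt27 read 3.02, against -4.51 and -3.60. None of the adipocyte, endothelial and monocyte or macrophage markers passed the adjusted threshold. After quantile normalization 30 of 30 members were lowest on FoxO1 +/- replicate 3. The part of array signal, RNA quality, slide position or wound composition in the low values of this array was not tested, and slide row 2 holds FoxO1 +/- arrays only.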

How the data were processed

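The deposited scanner files hold 1-colour spot intensity values on a linear scale, extracted by the authors with Agilent Feature Extraction 10.7.1.1 per the file headers (9.1 per the submitters' processing notes). Levels are log2 of the processed signal, as the mean over a probe's spots without those flagged as outliers, minus the 75th percentile of the array. Probes well above background on all 3 arrays of at least 1 genotype were kept (37898 of 55681), symbols came from RefSeq accessions, and the brightest probe stood for a gene. FoxO1 +/- and WT, 3 arrays each, were compared with limma 3.58.1 in R 4.3.3 (two-sided, Benjamini-Hochberg over 16408 genes). An exact permutation test of 3 against 3 arrays cannot go below 0.1. On simulated data for this comparison (16408 genes), 71 of 100 genes changed 2-fold and 94 of 100 changed 4-fold were called, with 12 false calls. The changed genes were drawn from all genes, with independent noise at each gene's own SD. The members' median SD was 0.47 in FoxO1 +/- and 0.30 in WT wounds, against 0.12 and 0.13 over all genes. These rates therefore do not hold for the members. The number of arrays limits the precision. The genes named are all members, Foxo1, the 2 genes of smallest p in each other list and some fixed genes of the pathway, a few of which are not reported here. Members and lists were chosen with earlier results of these data known. Alternatives tried were normexp on median signals (the planned mean signals were not used), quantile normalization, other filters, probe means, the authors' value table (the same signal within 1%, linear and not centred, with column medians of 97.2, 98.9 and 82.4 for FoxO1 +/- and 99.8, 103.0 and 112.0 for WT), slide row, replicate number as a block and leaving out arrays.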

Additional observations from a re-analysis of the deposited data

How the results depend on the processing

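No member passed an adjusted p of 0.05 under any alternative, and the low level on FoxO1 +/- replicate 3 kept its place. Under 8 scalings and filters, the main one included, the members' mean deviation there lay between -0.57 and -0.54. On that array 28 to 30 of 30 were lowest. The filters left the members' probes and scaling unchanged, so they could not move these values. The authors' value table holds nearly the same signal. Of all genes, 1 passed as analysed, 0 with normexp (chosen after seeing the data), with the 75th percentile over probes well above background on all arrays, with probes above background on all 6 arrays and with the replicate block, 2 with quantile normalization, 3 without a filter, 7 with slide row as a block and 4 within row 1. Scalings turned the sign of Ifngr1 (-0.0025 with normexp, -0.032 with quantile normalization, -0.0043 with the other 75th percentile), Irf3 (-0.00088 with normexp, -0.013 with quantile normalization) and Bst2 (-0.0074 with quantile normalization), and the mean of probes that of Ddx58 (0.018) and Xaf1 (0.038). With slide row as a block, as within row 1, 30 members read higher. Both fits rest on FoxO1 +/- replicate 1 against the 3 WT arrays. The turned differences were 0.20 for Ifih1, 0.17 for Ddx58, 0.20 for Dhx58, 0.046 for Zbp1, 0.39 for Irf7, 0.13 for Irf9, 0.36 for Ifit1, 0.46 for Ifit3, 0.21 for Oas1a, 0.37 for Oas2, 0.28 for Oas3, 0.27 for Oasl1, 0.21 for Oasl2, 0.34 for Rsad2, 0.40 for Cmpk2, 0.049 for Ifitm3, 0.21 for Isg15, 0.46 for Usp18, 0.052 for Gbp2, 0.26 for Gbp3, 0.52 for Ifi44, 0.22 for Xaf1, 0.16 for Cxcl9, 0.039 for Ifng, 0.028 for Stat3, 0.17 for Epsti1 and 0.071 for Nlrc5. Leaving out 1 array gave 0 to 28 genes past the adjusted threshold (28 without WT replicate 2). At an unadjusted p of 0.05 it gave 0 to 2 members. The 2 were found without FoxO1 +/- replicate 3, where 6.11% of all genes passed. Leaving out 1 array also gave 2 to 28 members higher and a members' median of -0.26 to 0.16. The median SD was 0.16 to 0.64 in FoxO1 +/- and 0.17 to 0.36 in WT wounds. Single genes whose sign turned ran over -0.32 to 0.041 for Ifih1, -0.25 to 0.097 for Ddx58, -0.28 to 0.13 for Dhx58, -0.22 to 0.080 for Zbp1, -0.24 to 0.29 for Irf7, -0.16 to 0.044 for Irf9, -0.16 to 0.32 for Stat2, -0.45 to 0.14 for Ifit1, -0.24 to 0.38 for Ifit2, -0.35 to 0.25 for Ifit3, -0.18 to 0.14 for Oas1a, -0.38 to 0.12 for Oas2, -0.39 to 0.16 for Oas3, -0.31 to 0.12 for Oasl2, -0.62 to 0.0049 for Rsad2, -0.48 to 0.16 for Cmpk2, -0.095 to 0.30 for Bst2, -0.090 to 0.081 for Ifitm3, -0.40 to 0.18 for Usp18, -0.34 to 0.029 for Gbp2, -0.16 to 0.25 for Gbp3, -0.30 to 0.40 for Ifi44, -0.21 to 0.17 for Xaf1, -0.13 to 0.24 for Parp14, -0.35 to 0.17 for Cxcl9, -0.23 to 0.67 for Cxcl10, -0.045 to 0.11 for Ifnar2, -0.045 to 0.071 for Ifngr1, -0.035 to 0.054 for Jak1, -0.025 to 0.15 for Jak2, -0.025 to 0.16 for Tyk2, -0.11 to 0.00065 for Stat3, -0.018 to 0.24 for Socs1, -0.036 to 0.16 for Irf8, -0.23 to 0.0074 for Epsti1 and -0.20 to 0.0069 for Nmi. The cause was not tested. Over all genes the replicate numbers did not pair the samples (correlations of deviations -0.068, -0.14 and -0.30 for equal numbers). Among the members, replicate 3 was the lowest FoxO1 +/- array for 30 and the lowest WT array for 20. With the replicate block the members' median stayed -0.08, with 7 higher and no other call changed. The members' SE was smaller with that block (0.13 against 0.37 for Ifit2), except for Irf1 (0.15 against 0.13), Rsad2 and Cxcl9. Dim genes such as Ifng are limited by their signal over background.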
